A study of Homo sapiens with 12 samples.

Results

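The genes described here encode the constitutive proteasome and its close partners. They were taken from the gene count table as every protein-coding symbol that begins with PSMA, PSMB, PSMC, PSMD, PSME, PSMF or PSMG, apart from the 4 inducible genes PSMB8, PSMB9, PSMB10 and PSME2, which left 46 of 58288 genes. HL60/S4 is a human promyelocytic leukemia cell line, and all cells were kept in calcium-supplemented medium during the treatment and had been passaged 8 times. Promyelocytes were the undifferentiated cells, and granulocytes were the same line after 4 days in 1 µM all-trans retinoic acid (ATRA). Each form received 16 ng/ml tumor necrosis factor (TNF-α) or water as vehicle for 2 h, with 3 RNA-seq libraries in each of the 4 groups, each from its own flask. The flasks come from 1 line, so p-values measure the spread between flasks. The 2 cell forms were treated in separate experiments, so cell form and experiment cannot be told apart in the levels, and levels were not tested between them.

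The proteasome is the protease that degrades proteins tagged with ubiquitin. Its barrel-shaped 20S core has outer rings of alpha subunits, which gate the entrance, and inner rings of beta subunits, of which PSMB5, PSMB6 and PSMB7 carry the active sites. The 19S cap recognizes ubiquitin, removes it and unfolds the substrate with a ring of ATPases. In TNF-α signaling the proteasome degrades the inhibitor IκBα, the product of NFKBIA, which frees NF-κB to enter the nucleus. Dedicated chaperones assemble core and cap, and alternative activators such as PSME1, PSME3 and PSME4 can replace the cap.

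The libraries held 22829189 to 31895061 counted read pairs. On the TMM scale 3 counts corresponded to 0.0952 to 0.135 CPM, the count scaled to library size after TMM scaling. Of the 46 members 44 passed the filter on low counts in both cell forms. PSMA8, the alpha subunit of germ cells, and PSMB11, the beta subunit of the thymus, had at most 3 counts in every library and were not tested. PSMC3IP, a recombination factor, and PSME3IP1, a nuclear partner of PSME3, carry the prefix without being subunits. The labels were checked with genes that TNF-α is known to induce: NFKBIA rose by 3.91 on the log2 scale in promyelocytes and 5.51 in granulocytes. Of 5 promyelocyte granule markers, the protease ELANE had at most 3 counts in every granulocyte library. Even in vehicle promyelocytes it was at 1.46 to 2.01 CPM. The 5 markers summed to 2131 to 2357 CPM in vehicle granulocytes and 7348 to 7960 CPM in vehicle promyelocytes. Most of this was MPO, at 1932 to 2127 and 6182 to 6631 CPM. The summed level of 6 granulocyte markers was 47.4 to 61.6 CPM in promyelocytes and 2779 to 3570 CPM in granulocytes. Of 4 monocyte markers, CD163 and MRC1 were at 3 counts or fewer in every library, CD14 had 2 to 12 counts, and CSF1R was at 49.2 to 51.0 CPM in vehicle granulocytes and 3.66 to 4.37 CPM in vehicle promyelocytes.

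Promoter sequence is shown for 4 members whose granulocyte responses spanned the range described below: PSMA6 and PSMA3 of the alpha ring, the ATPase PSMC4 and the chaperone PSMG1. The windows come from RefSeq on GRCh38.p14, run from 250 bases before to 50 bases after the gene start, and are written 5′ to 3′ on the gene's strand. They lie at chr14:35292067-35292366 (PSMA6, plus strand), chr14:58244593-58244892 (PSMA3, plus strand), chr19:39970915-39971214 (PSMC4, plus strand) and chr21:39183402-39183701 (PSMG1, minus strand). For all 4 genes this RefSeq start lies inside the gene as annotated for counting, beyond its first base. Capitals mark matches on either strand to the antioxidant response element core TGACNNNGC, bound by NFE2L1 and NFE2L2, or to CCAAT, bound by NF-Y.
PSMA6: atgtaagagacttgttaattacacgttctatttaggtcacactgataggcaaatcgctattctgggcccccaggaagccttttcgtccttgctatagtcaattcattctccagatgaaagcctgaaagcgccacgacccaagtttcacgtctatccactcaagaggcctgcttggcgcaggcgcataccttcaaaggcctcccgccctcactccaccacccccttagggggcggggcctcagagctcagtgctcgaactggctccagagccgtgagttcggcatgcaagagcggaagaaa
PSMA3: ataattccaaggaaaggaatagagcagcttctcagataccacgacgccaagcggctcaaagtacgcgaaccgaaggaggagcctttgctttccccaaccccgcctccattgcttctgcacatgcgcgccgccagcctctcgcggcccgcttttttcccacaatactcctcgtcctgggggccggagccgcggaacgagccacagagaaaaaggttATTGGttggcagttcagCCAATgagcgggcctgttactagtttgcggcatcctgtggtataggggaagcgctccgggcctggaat
PSMC4: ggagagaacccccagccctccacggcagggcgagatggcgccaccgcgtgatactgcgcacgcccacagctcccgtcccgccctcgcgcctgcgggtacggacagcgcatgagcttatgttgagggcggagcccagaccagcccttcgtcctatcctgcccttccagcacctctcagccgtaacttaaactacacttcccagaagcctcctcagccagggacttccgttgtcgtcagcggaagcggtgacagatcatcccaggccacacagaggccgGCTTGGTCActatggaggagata
PSMG1: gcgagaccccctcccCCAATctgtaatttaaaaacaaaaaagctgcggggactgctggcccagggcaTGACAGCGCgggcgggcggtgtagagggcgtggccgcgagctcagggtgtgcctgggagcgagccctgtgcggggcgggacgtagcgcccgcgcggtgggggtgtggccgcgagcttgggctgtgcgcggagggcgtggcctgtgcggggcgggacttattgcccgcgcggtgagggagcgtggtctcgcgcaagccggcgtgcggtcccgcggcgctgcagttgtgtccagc

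The PSMA6 window held neither motif. The PSMA3 window held CCAAT on both strands, the PSMC4 window held 1 antioxidant core, and the PSMG1 window held 1 of each.

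In promyelocytes few constitutive proteasome genes responded to TNF-α. Of 44 tested members 4 rose and 1 fell (edgeR's quasi-likelihood test, adjusted p under 0.05), against 8.15% of all 16250 tested genes called higher and 6.65% called lower, so the members' shares of 9.09% and 2.27% were near the background. Among the 8773 genes at or above the lowest tested member in mean level, 11% were higher and 8.69% lower. The median log2 fold change was 0.06 over the members and -0.01 over all genes tested. TNF-α and vehicle libraries did not overlap for 10 members above and 1 below, where 16.0% and 15.1% of all genes did the same. The share of members called also followed single libraries: leaving out TNF-α replicate 3 raised the number higher to 9, leaving out vehicle replicate 1 lowered it to 2, and leaving out vehicle replicate 2 or TNF-α replicate 2 lowered it to 1.

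Both alpha subunits that rose in promyelocytes had among the lowest CPM of the tested subunits of the ring. As described below, read pairs on exons they share with other genes were not counted, so low CPM need not mean low abundance. PSMA6 measured 21.6, 22.2 and 25.8 CPM with vehicle and 28.0, 33.2 and 27.6 CPM with TNF-α. The groups did not overlap, and the log2 fold change was 0.35 (SE 0.09, edgeR adjusted p = 0.00912). PSMA1 measured 29.6, 25.9 and 28.3 CPM with vehicle and 33.6, 39.6 and 32.9 CPM with TNF-α, a log2 fold change of 0.34 (SE 0.08, edgeR adjusted p = 0.00644). The groups again stood apart, with TNF-α replicate 2 the highest library for both genes. Without that library PSMA6 measured 0.27 (edgeR adjusted p = 0.0804) and PSMA1 0.25 (edgeR adjusted p = 0.0661). Leaving out vehicle replicate 2 also ended both calls (PSMA6 0.32, PSMA1 0.29), and leaving out vehicle replicate 1 ended that of PSMA6 (0.30).

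PSMD6, a non-ATPase subunit of the 19S lid, was 57.4, 55.0 and 57.9 CPM with vehicle and 64.7, 67.6 and 62.9 CPM with TNF-α in promyelocytes (log2 fold change 0.20, SE 0.06, edgeR adjusted p = 0.0311). Its groups did not overlap, but the call was lost on leaving out any vehicle library or TNF-α replicate 2, with log2 fold changes of 0.17 to 0.21. PSMC3IP was 24.0, 23.3 and 25.1 CPM with vehicle and 27.9, 31.4 and 30.9 CPM with TNF-α (0.32, SE 0.07, edgeR adjusted p = 0.00566). PSMG4, a chaperone of core assembly, fell from 54.5, 52.2 and 55.2 CPM to 39.8, 46.6 and 45.1 CPM (-0.30, SE 0.07, edgeR adjusted p = 0.00413). The calls of PSMC3IP and PSMG4 held with any 1 library left out. For the 39 members that were not called, the 95% intervals reached from -0.24 to 0.43 at their widest.

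**Figure D1:**
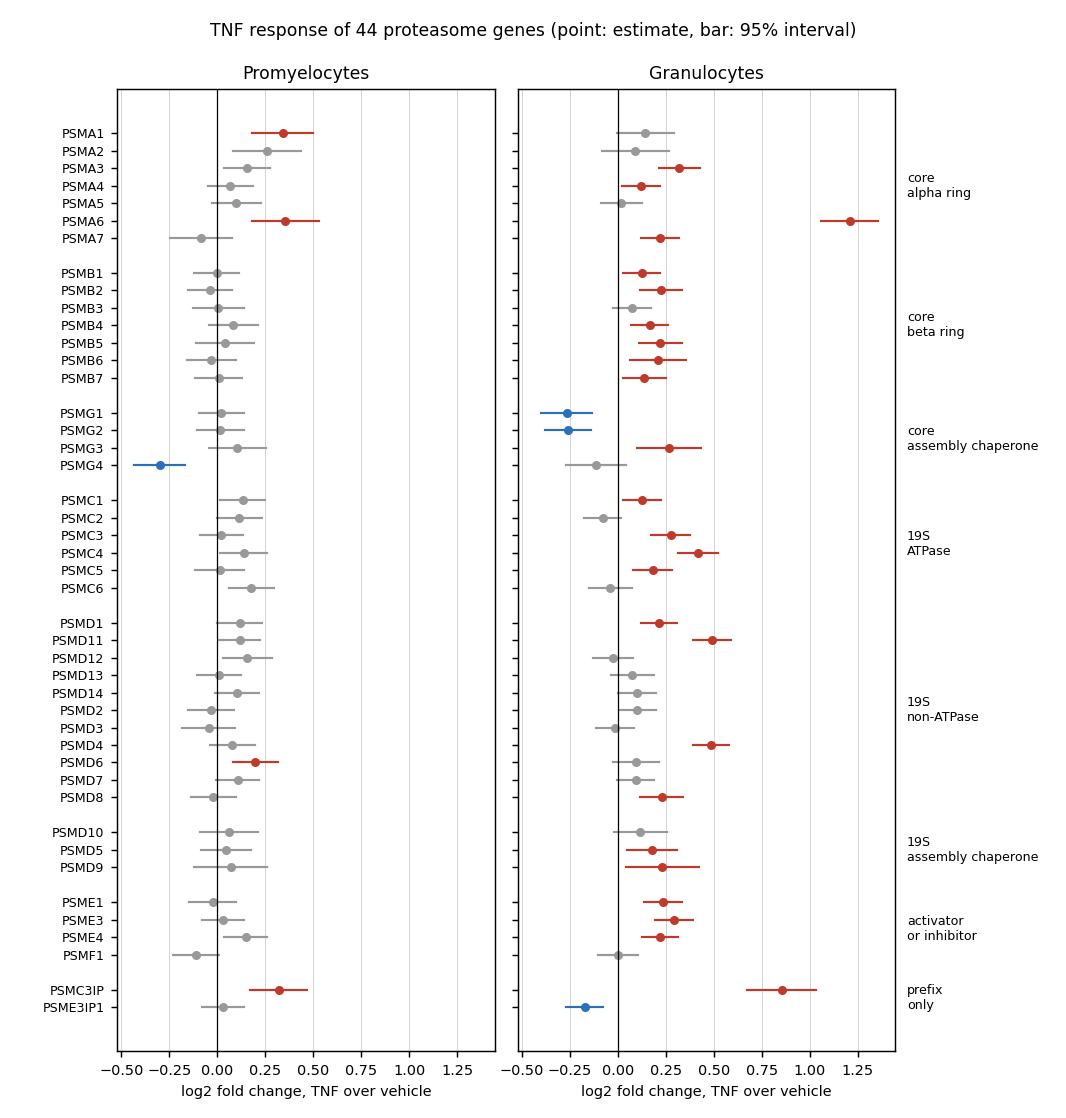
Log2 fold change of TNF-α over vehicle for the 44 tested members in promyelocytes (left) and granulocytes (right), grouped by role; points are edgeR estimates, bars 95% intervals, and colors mark genes called higher (red), lower (blue) or not called (grey). The red points number 4 on the left and 25 on the right, where PSMA6 lies farthest from 0 at 1.21.

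In granulocytes most of the tested members rose. TNF-α raised 25 of 44 members (56.8%) and lowered 3 (6.82%), against 24.4% of all 16944 tested genes called higher and 24.8% called lower. Among the 8916 genes at or above the lowest tested member in mean level, 31.7% were higher and 30.2% lower. The median log2 fold change was 0.14 over the members and 0.00 over all genes, and apart from PSMA6 and PSMC3IP the increases were small, between 0.12 and 0.49. These sizes depend on the TMM scaling. Its factors were 1.0346 to 1.0575 with vehicle and 0.9405 to 0.9716 with TNF-α. Relative to library size alone, this raised the log2 fold change of every gene. Which of the small increases would be called without the scaling was not tested. TNF-α and vehicle libraries did not overlap for 24 members above and 4 below, where 27.3% and 27.9% of all genes did the same. Among the 28 called members 25 had groups apart, and the exceptions were PSMA4, PSMB6 and PSMB7.

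PSMA6 had the largest response. This alpha subunit measured 17.3, 13.8 and 15.9 CPM with vehicle and 34.4, 36.8 and 37.1 CPM with TNF-α in granulocytes. The lowest TNF-α library was well above the highest vehicle library, and the log2 fold change was 1.21 (SE 0.08, edgeR adjusted p = 2.58e-16). Of the other alpha subunits, PSMA3 (0.32), PSMA7 (0.22) and PSMA4 (0.12) rose, whereas PSMA1 (0.14), PSMA2 (0.09) and PSMA5 (0.02) did not pass the test. The ring therefore held 4 genes called higher among 7 tested.

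The counting of PSMA6, PSMA1 and PSMA2 differed from that of the other alpha subunits. Each shares exon bases with an annotated readthrough gene on the same strand (919 for PSMA6, 814 for PSMA1 and 781 for PSMA2), and read pairs on exons of 2 genes were not counted. In vehicle promyelocytes their levels per length were 3.56, 8.46 and 2.85 CPM per kb, against 25.6 to 112 CPM per kb for the other 4 alpha subunits tested. The values of these 3 genes therefore come from the remaining exon bases, and the part of the left-out pairs in their TNF-α response was not tested. Reads on the 4 annotated PSMA6 pseudogenes came to 1.63% of the PSMA6 reads.

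**Figure D2:**
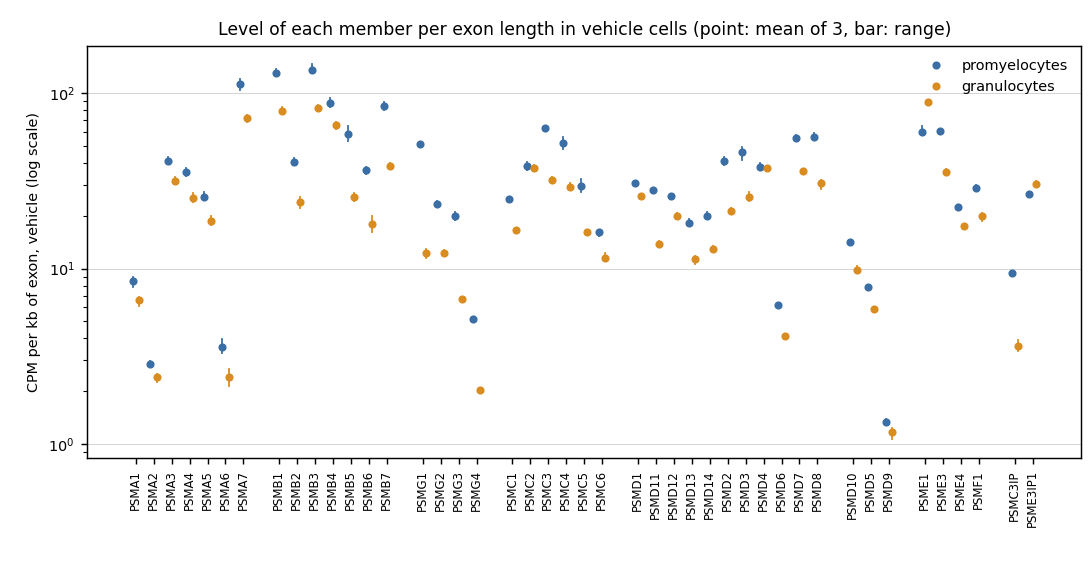
Mean level per kb of exon in vehicle promyelocytes (blue) and vehicle granulocytes (orange) on a log axis, with members grouped by role; bars span the 3 libraries. PSMA1, PSMA2 and PSMA6 lie below the other alpha subunits in both cell forms, and PSMD9, at 1.34 and 1.17 CPM per kb, has the lowest value of the tested members. PSMD9 too shares exon bases with same-strand genes (1307 and 436), where pairs were not counted.

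In the beta ring 6 of 7 tested subunits rose in granulocytes, and PSMB3 (0.08) did not pass the test. Of these 6 calls, those of PSMB2 and PSMB5 held in every fit tried. The chymotrypsin-like subunit PSMB5 measured 47.6, 43.0 and 44.3 CPM with vehicle and 53.1, 52.5 and 51.4 CPM with TNF-α (log2 fold change 0.22, SE 0.06, edgeR adjusted p = 0.0015), with no overlap of the groups. The caspase-like subunit PSMB6 measured 25.7, 23.4 and 29.0 CPM with vehicle and 31.6, 31.2 and 27.3 CPM with TNF-α (0.21, SE 0.07, edgeR adjusted p = 0.0198). Its groups overlapped, since vehicle replicate 3 exceeded TNF-α replicate 3. The PSMB6 call held in 2 of 6 fits without 1 library, and its log2 fold change was 0.14 without vehicle replicate 2 (edgeR adjusted p = 0.182) and 0.14 with GC and length trends removed (edgeR adjusted p = 0.0868). The trypsin-like subunit PSMB7 measured 67.5, 66.0 and 71.8 CPM with vehicle and 73.3, 82.0 and 70.1 CPM with TNF-α (0.14, SE 0.06, edgeR adjusted p = 0.0453). Here TNF-α replicate 2 was the highest library and the groups overlapped, and without it PSMB7 measured 0.07 (edgeR adjusted p = 0.383). The structural subunits PSMB2 (0.22), PSMB4 (0.17) and PSMB1 (0.12) rose as well, but without 1 library the PSMB1 call held in 2 of 6 fits and the PSMB4 call in 5 of 6.

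None of these 3 catalytic genes passed the test in promyelocytes. PSMB5 was 114, 101 and 93.6 CPM with vehicle and 94.3, 111 and 112 CPM with TNF-α, a log2 fold change of 0.04. PSMB6 was 54.9, 53.7 and 50.0 CPM with vehicle and 48.5, 53.5 and 53.1 CPM with TNF-α, a log2 fold change of -0.03. PSMB7 was 158, 149 and 143 CPM with vehicle and 140, 160 and 152 CPM with TNF-α, a log2 fold change of 0.01. The groups overlapped for all 3 genes.

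In the 19S cap 4 of 6 ATPases and 4 of 11 non-ATPase subunits rose in granulocytes, and none fell. The 36.4% of non-ATPase subunits was near the 31.7% called higher among genes at like levels. PSMD11, a scaffold subunit of the lid, measured 95.8, 98.7 and 103 CPM with vehicle and 143, 141 and 134 CPM with TNF-α (log2 fold change 0.49, SE 0.05, edgeR adjusted p = 1.66e-10). PSMD4, a ubiquitin receptor, measured 117, 111 and 113 CPM with vehicle and 159 CPM in each of the 3 TNF-α libraries (0.49, SE 0.05, edgeR adjusted p = 7.06e-11). Both genes had clearly separated groups in granulocytes. In promyelocytes PSMD11 was 206, 201 and 202 CPM with vehicle and 216, 218 and 226 CPM with TNF-α, and PSMD4 was 121, 113 and 111 CPM with vehicle and 115, 127 and 122 CPM with TNF-α; their log2 fold changes of 0.12 and 0.08 did not pass the test. The other non-ATPase genes that rose in granulocytes were PSMD8 (0.23) and the large scaffold subunit PSMD1 (0.21). PSMD14, the deubiquitinase of the lid, measured 0.10 and was not called.

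Among the ATPases PSMC4 rose most in granulocytes (0.42, SE 0.05, edgeR adjusted p = 1.95e-08). PSMC3 measured 71.9, 71.7 and 76.1 CPM with vehicle and 88.4, 89.7 and 87.7 CPM with TNF-α, a log2 fold change of 0.27 (SE 0.05, edgeR adjusted p = 2.51e-05) with no overlap. In promyelocytes PSMC3 was 148, 146 and 140 CPM with vehicle and 140, 152 and 147 CPM with TNF-α, and the groups overlapped. PSMC5 (0.18) and PSMC1 (0.13) also rose in granulocytes, whereas PSMC2 (-0.08) and PSMC6 (-0.04) were not called. Of the cap's assembly chaperones, PSMD9 (0.23) and PSMD5 (0.18) rose and PSMD10 (0.12) was not called. PSMD9 shares 1307 and 436 exon bases with other genes on the same strand. The part of the left-out pairs in its response was not tested.

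**Figure D3:**
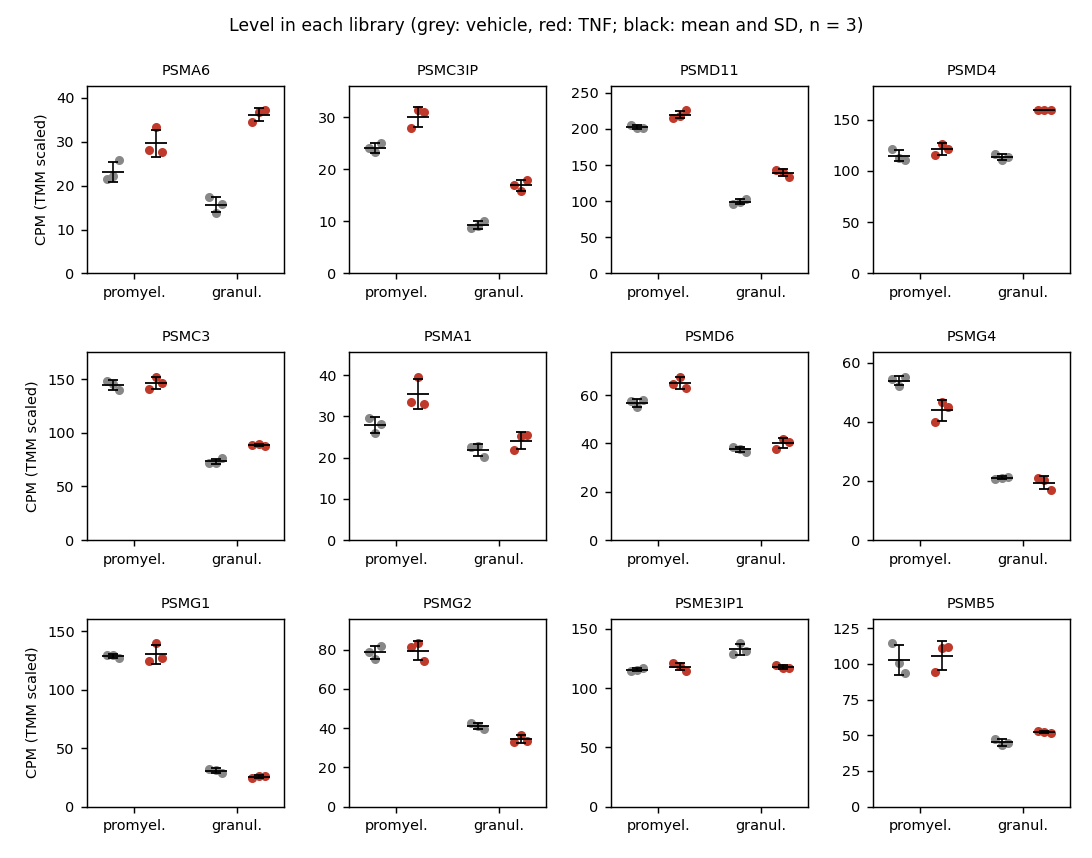
CPM in each library for 12 members, with vehicle in grey, TNF-α in red, and the mean and SD of 3 libraries in black; each axis starts at 0. In granulocytes the red points of PSMA6, PSMC3IP, PSMD11, PSMD4 and PSMC3 lie above the grey points, and those of PSMG1, PSMG2 and PSME3IP1 lie below.

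The activators rose in granulocytes and the inhibitor did not pass the test. PSME3, which forms the nuclear activator ring, measured 0.29, PSME1, a subunit of the interferon-inducible ring, 0.24, and PSME4, the single-chain activator, 0.22 on the log2 scale, all called higher. The log2 fold change of PSMF1, an inhibitor of the 20S core, was 0.00 (edgeR adjusted p = 0.987).

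The chaperones of core assembly were the only role list with more genes lower than higher in granulocytes, with 2 lower and 1 higher of 4. PSMG1 measured 32.3, 31.2 and 28.8 CPM with vehicle and 24.1, 26.5 and 26.0 CPM with TNF-α (log2 fold change -0.27, SE 0.07, edgeR adjusted p = 0.00132). PSMG2, with which PSMG1 forms a dimer that helps build the alpha ring, measured 42.8, 41.2 and 39.8 CPM with vehicle and 33.1, 36.6 and 33.6 CPM with TNF-α (-0.26, SE 0.06, edgeR adjusted p = 0.000644). For both genes all TNF-α libraries lay below all vehicle libraries. PSMG3 rose (0.27), and its partner PSMG4 measured -0.12 and was not called. In promyelocytes PSMG1 was 129, 129 and 127 CPM with vehicle and 124, 140 and 127 CPM with TNF-α, and PSMG2 was 78.6, 75.5 and 81.8 CPM with vehicle and 81.2, 83.3 and 74.1 CPM with TNF-α, with overlapping groups.

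The genes that carry only the prefix moved apart in granulocytes. PSMC3IP rose from 8.73, 9.13 and 10.1 CPM to 17, 15.8 and 17.9 CPM (log2 fold change 0.85, SE 0.09, edgeR adjusted p = 5.63e-10). It overlaps MLX on the opposite strand by 770 exon bases, and the counting used strand. PSME3IP1 fell from 129, 138 and 132 CPM to 120, 117 and 117 CPM (-0.17, SE 0.05, edgeR adjusted p = 0.00342). Without these 2 genes 24 of 42 subunit and chaperone genes were higher and 2 lower.

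The difference between the granulocyte and promyelocyte responses was tested in 1 fit of all 12 libraries. It was higher in granulocytes for 11 members and lower for 2, against 14.1% and 9.88% of all 18124 tested genes, which is 25.0% and 4.55% of the members. Among the 9065 genes at or above the lowest tested member in mean level, 22.0% were higher and 15.4% lower, so the members' share of higher differences was near that of genes at like levels. With DESeq2's size factors in place of TMM the shares of all genes were 11.7% and 12.5%, and 10 members were higher and 3 lower. The smallest p-values belonged to PSMA6 (difference 0.89), PSMD4 (0.45), PSMD11 (0.41), PSMC3IP (0.57) and PSMC3 (0.29). The 2 lower differences were those of PSMG1 (-0.25) and PSMG2 (-0.24), and of the 12 fits without 1 library these calls held in 5 and 4. The differences of PSMB5 (0.22), PSMB6 (0.28) and PSMB7 (0.17) did not pass the test. In the separate comparisons 2 members, PSMA6 and PSMC3IP, were higher in both cell forms, 0 were called in opposite directions, and 13 were called in neither.

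PSMA6 lies on chromosome 14 close to NFKBIA. On hg38 PSMA6 is at chr14:35278633-35317493 on the plus strand, and the nearest base of NFKBIA, on the minus strand, lies 84018 bases beyond its end. The RefSeq start used for the promoter window lies inside this annotated gene, beyond its first base. The tested genes within 250 kb were named after their values were seen. FAM177A1, on the other side of PSMA6, had log2 fold changes of 0.34 in promyelocytes and 1.23 in granulocytes, beside 0.35 and 1.21 for PSMA6. PPP2R3C (0.41), PRORP (0.33) and SRP54 (0.15) were higher in granulocytes and were not called in promyelocytes, and RALGAPA1 was called in neither.

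**Figure D4:**
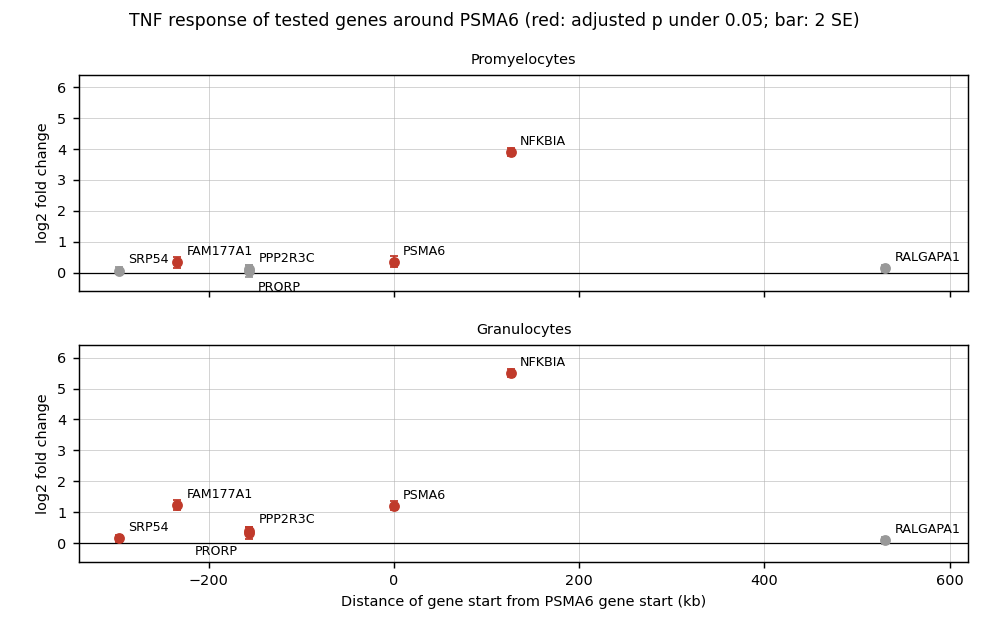
Log2 fold change of TNF-α over vehicle for the tested genes around PSMA6, against the distance of each gene's start from the PSMA6 start in kb; bars are 2 SE and red marks an edgeR adjusted p under 0.05. NFKBIA is highest in both panels (3.91 and 5.51), and FAM177A1 and PSMA6 lie beside each other in height in each panel.

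The inducible subunits PSMB8, PSMB9 and PSMB10 take the places of PSMB5, PSMB6 and PSMB7 in the immunoproteasome, and PSME2 partners PSME1. Their balance was compared within each library as the log2 ratio of levels per kb. PSMB10 shares 644 of its 1853 exon bases, and PSMB9 174 of 3072, with another gene on the same strand. Pairs on those bases were not counted, so the ratios of PSMB10 and PSMB9 may read low. The part of the left-out pairs in the differences was not tested. In granulocytes the PSMB8 to PSMB5 ratio was 0.43, 0.62 and 0.60 with vehicle and 0.16, 0.17 and 0.18 with TNF-α, a difference of -0.38. The PSMB9 to PSMB6 ratio was -0.86, -0.89 and -1.08 with vehicle and -1.44, -1.26 and -1.25 with TNF-α, a difference of -0.37. In both pairs all TNF-α libraries lay below all vehicle libraries, but the exact two-sided permutation p was 0.1, the smallest that 3 against 3 allows, and 0.267 after adjustment over 8 tests. The differences for PSMB10 to PSMB7 (-0.12, exact p = 0.2) and PSME2 to PSME1 (-0.02, exact p = 0.9) had overlapping groups. In promyelocytes the PSMB8 to PSMB5 difference was -0.17 (exact p = 0.1), and those of the other 3 pairs ranged from -0.11 to 0.06. Of the inducible genes themselves, PSME2 rose (0.22) and PSMB8 fell (-0.16) in granulocytes, and none of the 4 was called in promyelocytes.

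**Figure D5:**
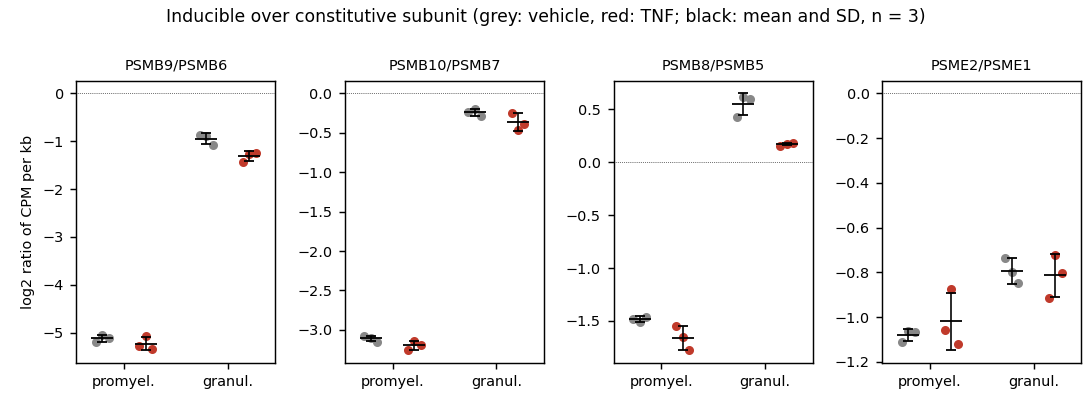
Log2 ratio of inducible over constitutive subunit, in CPM per kb, for each library with vehicle in grey and TNF-α in red; black marks the mean and SD of 3 libraries, and each panel has its own axis. In granulocytes the red points for PSMB9/PSMB6 and PSMB8/PSMB5 lie below the grey points.

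The summed level of the 46 members in granulocytes was 3723 to 3837 CPM with vehicle and 4188 to 4258 CPM with TNF-α, with no overlap. This separation rests on the TMM scaling. Before it, the members held 0.3897% to 0.4058% of counted read pairs with vehicle and 0.3995% to 0.4069% with TNF-α, and the groups overlapped. In promyelocytes the summed level was 5624 to 5994 CPM with vehicle and 5834 to 6135 CPM with TNF-α, and the groups overlapped. In bulk RNA, fewer cells of a kind and less RNA per cell cannot be told apart. Marker levels moved with the treatment too. The 6 granulocyte markers summed to 2779 to 3033 CPM with vehicle and 3246 to 3570 CPM with TNF-α in granulocytes, and to 47.4 to 52.3 CPM and 56.7 to 61.6 CPM in promyelocytes. The 5 promyelocyte granule markers summed to 7348 to 7960 CPM with vehicle and 6119 to 7013 CPM with TNF-α in promyelocytes, and overlapped in granulocytes. The 4 monocyte markers summed to 49.4 to 51.2 CPM with vehicle and 30.0 to 33.7 CPM with TNF-α in granulocytes, nearly all of it CSF1R, while CD14 was slightly higher with TNF-α at 5 to 12 counts per library. Their part in the proteasome results was not tested.

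Other genes of the pathway were counted from a fixed list of 40. In granulocytes 25 were higher (62.5%) and 5 lower (12.5%), against 24.4% and 24.8% of all genes. In promyelocytes 3 were higher (7.5%), near the 8.15% of all genes, and edgeR called none lower. The 3 higher in promyelocytes were NFE2L2 (1.01), NFYA (0.30) and NPLOC4 (0.21). NFE2L2, a transcription factor that binds antioxidant elements, measured 89.7, 85.4 and 83.6 CPM with vehicle and 386, 384 and 386 CPM with TNF-α in granulocytes (log2 fold change 2.16, SE 0.05, edgeR adjusted p = 7.58e-30), the largest response on the list. NFE2L1, the factor known for restoring proteasome gene expression when the proteasome is inhibited, measured 0.02 and was not called.

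Of 12 proteasome genes without the prefix, 9 rose and 1 fell in granulocytes. ECPAS, a proteasome adaptor, measured 0.62, ADRM1, a ubiquitin receptor of the cap, 0.38, SEM1, a lid subunit, 0.37, AKIRIN2, which carries proteasomes into the nucleus, 0.32, and POMP, the maturation protein of the core, 0.24 on the log2 scale. PAAF1, an assembly factor of the cap, fell by 0.36. All 3 genes of the VCP complex, which extracts ubiquitinated proteins, rose (NPLOC4 0.84, UFD1 0.30, VCP 0.14). Of the 6 shuttle receptors, which bring ubiquitinated proteins to the cap, 4 rose, led by UBQLN4 (0.82), and DDI2 (-0.24) and UBQLN1 (-0.14) fell.

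Promoter motifs were counted in the 40 members with a window among 35116 windows. The antioxidant core was present in 11 of 40 members (27.5%) and in 13.3% of all windows. CCAAT was present in 20 of 40 (50.0%) and in 34.6% of all windows, and the NF-κB consensus was present in none of 40 and in 5.91% of all windows. By response, the antioxidant core was present in 6 of 19 windows of members higher in granulocytes, 3 of 16 not called and 2 of 3 lower, those of PSMG1 and PSMG2. These matches are descriptions of letters and were not tested as binding sites.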

How the data were processed

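RNA was measured in 12 libraries, grouped from the sample labels into 4 groups of 3. The authors depleted ribosomal RNA, aligned 150-base read pairs to hg38 with STAR 2.5.3a and counted primary alignments per GENCODE gene with featureCounts 1.5.2, with strand; the deposited table holds raw counts that were not normalized. Pairs on exons of more than 1 gene were not counted. Of 58288 gene IDs 57577 had a symbol.

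Counts were tested in edgeR 4.0.16 (R 4.3.3) with TMM scaling, a minimum count of 10 and a minimum total of 15, the quasi-likelihood test and Benjamini-Hochberg adjustment over all genes tested, at 0.05. Each cell form was fitted on its own, and the difference of responses on all 12 libraries. CPM are on the TMM scale, and levels per kb divide by exon length. Depth limits precision as given in the report, and this covers counting error only. Ratios were tested by exact permutation.

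Values in every library were given for the 4 largest called increases and decreases in each cell form (mean log2 CPM 1 or more), the 5 smallest p-values for the difference of responses, and PSMB5, PSMB6 and PSMB7. The members and gene lists were chosen with earlier results of these data known.

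Alternatives were DESeq2 size factors, DESeq2 1.42.0, no filter, all 12 libraries in 1 fit, the replicate number as a block, GC and length trends removed, and leaving out each library. Scaling by library size alone was not among them. Deviations of same-numbered vehicle and TNF-α libraries correlated between -0.23 and -0.01, so the numbers were not taken to pair the samples. The fits were tested on simulated data. A first form of the GC and length correction left part of a simulated bias in place; its curves (natural splines with 5 degrees of freedom) were then fitted on genes with a mean of at least 5 CPM only, after real values under the first form had been seen and before those under the second, and all values given come from the second form.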

Additional observations from a re-analysis of the deposited data

Results flagged for a closer look

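For 13 members the TNF-α response differed between granulocytes and promyelocytes by a test of the difference itself, the interaction term of the edgeR fit on all 12 libraries (adjusted p under 0.05). These are 25.0% of the tested members higher and 4.55% lower, against 14.1% and 9.88% of all genes and 22.0% and 15.4% of genes at or above the lowest tested member in mean level, so the members' share of higher differences was near that of genes at like levels. The values are granulocyte minus promyelocyte log2 fold changes.

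The difference was positive for 11 members. In the alpha ring PSMA6 measured 0.89 and PSMA7 0.34, and in the beta ring PSMB2 measured 0.30. In the 19S cap the values were 0.45 for PSMD4, 0.41 for PSMD11, 0.29 for PSMD8, 0.32 for PSMC4 and 0.29 for PSMC3. The activators PSME3 and PSME1 both measured 0.30, and PSMC3IP, which is no subunit, measured 0.57. PSMA6 and PSMC3IP rose in both cell forms, and the other 9 were called higher in granulocytes and were not called in promyelocytes.

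The difference was negative for the core assembly chaperones PSMG1 (-0.25) and PSMG2 (-0.24), which fell in granulocytes and were not called in promyelocytes. Because the cell forms were treated in separate experiments, a difference between cell forms and a difference between experiments cannot be told apart.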

How the results depend on the processing

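No called value reversed its direction under any alternative tried; the ratio of PSME2 to PSME1, which was not called, ranged from -0.06 to 0.03 in granulocytes and from -0.01 to 0.11 in promyelocytes with 1 library left out. In granulocytes the number of members higher was 19 to 29 across the alternatives with all libraries and 18 to 25 with 1 library left out, against 25, and the number lower was 3 in each of these fits, or 2 when the prefix-only genes were not counted. In promyelocytes it was 3 to 6 higher, and 1 to 9 with 1 library left out, against 4; the number lower was 1 throughout.

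The members whose response was higher in granulocytes by the test of the difference numbered 11, but 7 without the filter, 17 with GC and length trends removed, and 8 to 13 with 1 library left out. Those lower numbered 2, but 6 without the filter, 5 with DESeq2, 1 with the replicate block plus GC and length trends removed, and 0 to 2 with 1 library left out (1 without promyelocyte vehicle replicate 1 or 3 or TNF-α replicate 1; 0, with 3 to 5 at an unadjusted p under 0.05, without promyelocyte vehicle replicate 2 or TNF-α replicate 2 or granulocyte vehicle replicate 1 or 2 or TNF-α replicate 1 or 3). With the replicate block alone edgeR called 0, with 2 at an unadjusted p under 0.05. The median log2 fold change in granulocytes, 0.14, was 0.18 with GC and length trends removed, with or without the replicate block, and 0.13 to 0.17 with 1 library left out. The cause of these shifts was not tested.

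Calls that held in every alternative numbered 2 of 5 in promyelocytes (PSMC3IP and PSMG4), 19 of 28 in granulocytes and 6 of 13 for the difference. The replicate block ended 1, 5 and 3 calls, and removing GC and length trends ended 0, 2 (PSMB6 and PSMG3) and 1 (PSMD8). In granulocytes leaving out 1 library ended the calls of PSMA4, PSMB1, PSMB4, PSMB6, PSMB7, PSMC1, PSMD5, PSMD9 and PSMG3; vehicle replicate 2 did so for PSMA4 (0.11), PSMB1 (0.11), PSMB4 (0.13), PSMB6 (0.14), PSMB7 (0.11), PSMC1 (0.14) and PSMD5 (0.15). Vehicle replicate 1 did so for PSMB6, PSMB7 and PSMD9 (0.13 to 0.25), vehicle replicate 3 for PSMA4, PSMB1, PSMC1 and PSMD9 (0.09 to 0.17), TNF-α replicate 1 for PSMA4, PSMB1, PSMB6, PSMC1 and PSMD5 (0.09 to 0.17), TNF-α replicate 2 for PSMA4, PSMB1, PSMB6, PSMB7, PSMC1, PSMD9 and PSMG3 (0.07 to 0.21), and TNF-α replicate 3 for PSMD9 (0.22). For the difference, PSMA7, PSMB2 and PSMD8 lost their calls without granulocyte vehicle replicate 2 (0.30, 0.25 and 0.24), PSMB2 and PSMD8 without granulocyte TNF-α replicate 1 (0.24 and 0.22), and PSMA7 and PSMD8 without promyelocyte vehicle replicate 1 (0.28 and 0.24) or TNF-α replicate 1 (0.23 and 0.24). The smallest change called higher in granulocytes was 0.12 on the log2 scale. How far such small calls depend on the TMM scaling was not tested.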
